A study of Mus musculus with 6 samples.

Results

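The 8 mouse troponin genes Tnni1, Tnni2, Tnni3, Tnnt1, Tnnt2, Tnnt3, Tnnc1 and Tnnc2 were read from an array study of the neonatal heart, out of 19938 genes that lay on transcript clusters with a single gene symbol. A transcript cluster is the set of probes that the array assigns to a gene. Members were chosen by gene name. Each of the 8 was on exactly 1 cluster, with no cluster shared with another gene, so no choice between clusters was needed. All 8 were bright enough for the test, which left out genes with a mean log2 signal under 3.45.

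The hearts came from C57BL/6J mice at postnatal day 14. The ETX group (replicates 6, 7 and 10) had received ETX for 1 week, and the PBS group (replicates 3, 9 and 12) its vehicle, phosphate-buffered saline, over the same time. The labels do not spell out ETX, and they name no genetic change in either group. There were 3 hearts a group, called biological replicates, with 1 array for each heart, and this number limits the precision.

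Troponin is the calcium switch of the thin filament in striated muscle. Its C subunit binds calcium, its I subunit holds back the interaction of actin with myosin, and its T subunit ties the complex to tropomyosin. The foetal rodent heart uses the slow skeletal I subunit, encoded by Tnni1, and replaces it around and after birth by the cardiac I subunit, encoded by Tnni3, which carries an extra amino-terminal stretch with target serines of protein kinase A. Tnnt2 encodes cardiac troponin T, Tnnt1 the slow skeletal and Tnnt3 the fast skeletal form. Tnnc1 serves both heart and slow skeletal muscle, and Tnnc2 and Tnni2 encode the fast skeletal C and I subunits. In these hearts Tnnt1 rose, Tnni1 was higher in each ETX heart by unequal amounts without passing the test, and Tnni3 and Tnni2 were slightly lower in each ETX heart without passing it. Tnnt2, Tnnt3, Tnnc1 and Tnnc2 overlapped between the groups.

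Tnnt1 and Tnni3 are direct neighbours on chromosome 7, with 0 protein-coding genes between them in the RefSeq gene table (GRCm38.p6). Lad1 lies between Tnni1 and Tnnt2 on chromosome 1, and Lsp1 between Tnni2 and Tnnt3 on chromosome 7. Promoter windows of 250 bases before to 50 after an annotated start were at hand for 6 of the 8 genes, from RefSeq. The 3 printed here belong to the gene that rose and to the foetal and adult I subunits that differed in opposite directions. Capitals mark matches, on either strand, to 6 motifs: the TATA box TATAAA, the GATA factor core GATAA, the MCAT element CATTCC, the E-box CANNTG, the MEF2 consensus and the CArG box. The windows are chr7:4515926-4516225 for Tnnt1 and chr7:4522479-4522778 for Tnni3, both on the minus strand, and chr1:135799171-135799470 on the plus strand for Tnni1, the first of its 2 windows.
Tnnt1: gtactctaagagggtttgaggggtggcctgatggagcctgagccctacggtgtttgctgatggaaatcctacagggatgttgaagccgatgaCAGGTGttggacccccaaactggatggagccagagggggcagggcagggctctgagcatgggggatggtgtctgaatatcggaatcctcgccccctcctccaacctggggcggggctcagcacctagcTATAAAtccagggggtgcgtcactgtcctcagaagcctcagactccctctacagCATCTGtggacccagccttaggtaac
Tnni1: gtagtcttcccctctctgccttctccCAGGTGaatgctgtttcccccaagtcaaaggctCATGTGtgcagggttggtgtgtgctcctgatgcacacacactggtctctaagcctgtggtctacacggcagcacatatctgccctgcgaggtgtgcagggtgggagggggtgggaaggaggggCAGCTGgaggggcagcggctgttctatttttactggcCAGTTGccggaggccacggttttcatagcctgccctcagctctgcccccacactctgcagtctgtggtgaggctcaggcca
Tnni3: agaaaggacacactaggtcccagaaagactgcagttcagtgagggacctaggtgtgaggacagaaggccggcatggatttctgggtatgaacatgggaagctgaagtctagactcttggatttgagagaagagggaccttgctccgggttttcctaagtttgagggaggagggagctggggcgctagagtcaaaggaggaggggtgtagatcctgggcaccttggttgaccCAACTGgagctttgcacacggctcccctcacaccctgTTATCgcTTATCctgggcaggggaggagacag

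The window of Tnnt1 held TATAAA, whose first base lay at -30 relative to the annotated start, and 2 E-boxes. Tnni1 held 4 E-boxes and none of the other 5 motifs, and Tnni3 held 2 matches to GATAA, just after the start, and 1 E-box. No matches overlapped in these windows. Among 32851 promoter windows of the same length, 13.6% held TATAAA, 25.4% GATAA, 14.7% CATTCC, 72.3% an E-box, 3.19% the MEF2 consensus and 1.63% a CArG box. A match describes letters, not binding.

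Before the troponin values, 2 features of the hearts bear on them. PBS replicates 3 and 9 carried lung transcripts: the surfactant gene Sftpc was at 3.10 to 3.31 in ETX, and at 8.12 and 8.58 in these PBS hearts and 3.59 in PBS replicate 12. Most atrial markers were high in ETX replicates 6 and 7 and PBS replicate 3. Myl7, an atrial myosin light chain, was at 9.03, 8.84 and 8.46 in these hearts. It was at 6.24 in ETX replicate 10 and 5.89 and 6.22 in PBS replicates 9 and 12. Myl4, Sln, Mybphl and Dkk3 were highest in the same hearts, but Bmp10 and Nppa departed from this. Bmp10 was at 7.71 in PBS replicate 3 but at 2.79 and 2.94 in ETX replicates 6 and 7. Nppa was also high in ETX replicate 10, at 11.89, against 9.28 and 9.04 in PBS replicates 9 and 12. The mean of the atrial markers, used below, joins these patterns. The array medians lay between 4.43 and 4.51 on the log2 scale. Levels are log2 signals of each gene's own probes, so they are compared between hearts and not between genes. The values come from whole hearts, in which fewer cells of a type and less RNA per cell cannot be told apart.

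Slow skeletal troponin T rose. Tnnt1 had log2 signals of 6.82, 6.86 and 6.80 in ETX replicates 6, 7 and 10, against 6.40, 6.44 and 6.53 in PBS replicates 3, 9 and 12. All ETX hearts lay above all PBS hearts, and both groups were tight. The means were 6.83 ± 0.03 in ETX and 6.46 ± 0.07 in PBS (SD, n = 3 each), a log2 difference of 0.37 with a standard error of 0.07 (95% interval 0.22 to 0.52) or 1.29-fold, and limma's moderated test with Benjamini-Hochberg adjustment over 14953 genes gave an adjusted p = 0.0318. It was the 1 troponin gene called of 8, and over all genes tested 3.56% were called and 1.14% were called as higher in ETX.

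The Tnnt1 call rests on having all 6 hearts. The adjusted p from limma was 0.119 without ETX replicate 7, 0.0856 without ETX replicate 6, 0.0765 without ETX replicate 10, 0.0861 without PBS replicate 3, 0.0705 without PBS replicate 9 and 0.0504 without PBS replicate 12. The log2 difference stayed between 0.34 and 0.41 in these fits. With the mean of the lung markers as a covariate the difference was 0.31 (limma adjusted p = 0.156), and without PBS replicates 3 and 9 it was 0.29 (limma adjusted p = 0.209, with PBS replicate 12 as the lone PBS heart).

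**Figure D1:**
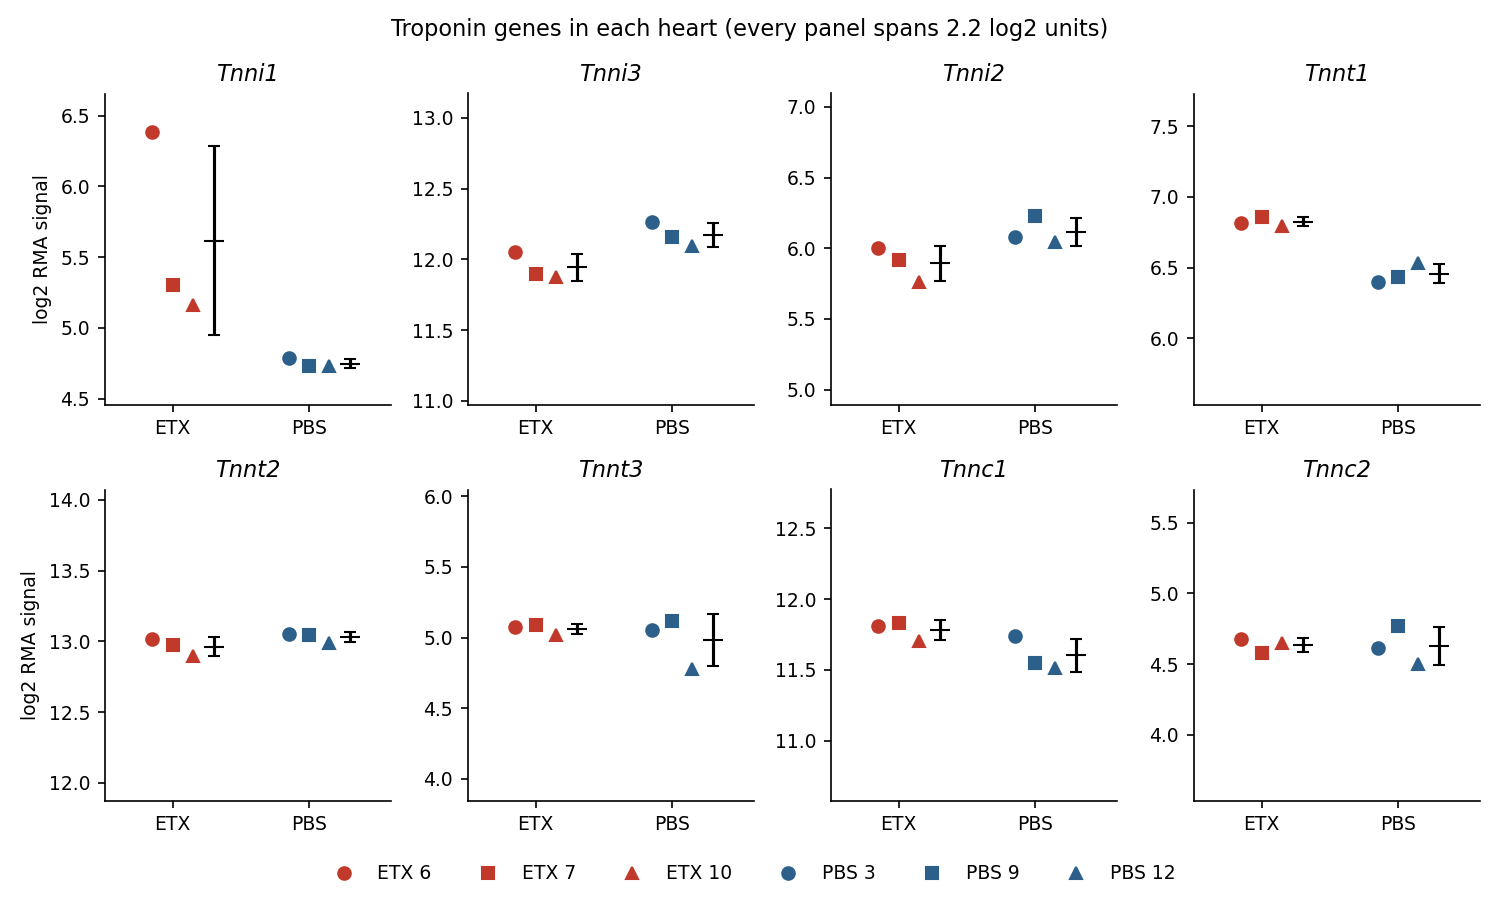
Log2 RMA signal of the 8 troponin genes in each heart, with ETX left of PBS in every panel, 1 symbol for each heart, and the mean and SD of 3 hearts beside the points. Tnnt1 is separated with little spread (6.80 to 6.86 in ETX, 6.40 to 6.53 in PBS), and Tnni1 is separated with ETX replicate 6 far above the other 2 ETX hearts.

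The foetal I subunit varied most among the ETX hearts. Tnni1 was at 6.39, 5.30 and 5.16 in ETX replicates 6, 7 and 10, against 4.78, 4.73 and 4.73 in PBS replicates 3, 9 and 12. Every ETX heart lay above every PBS heart, and ETX replicate 6 lay more than 1 log2 unit above the other ETX hearts. PBS replicates 9 and 12 agreed in every printed digit (4.72805), so the PBS SD may understate the spread between hearts. The reason for this tie was not tested. The means were 5.62 ± 0.67 in ETX and 4.75 ± 0.03 in PBS (SD, n = 3 each), with a log2 difference of 0.87 (standard error 0.28, 95% interval 0.23 to 1.51), or 1.83-fold. It did not pass over all genes (limma adjusted p = 0.125).

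That outcome changed in 1 of the 6 fits with a heart left out. Without ETX replicate 6 the difference was 0.48 and Tnni1 just passed (limma adjusted p = 0.0487), whereas with all 6 hearts it did not. Tnni1 passed in 0 of the 7 other planned settings with all hearts (limma adjusted p from 0.0809 to 0.273). In PBS hearts Tnni1 was close to the array median, and the deposited values carry no detection call, so the fold has a dim denominator. The mean of 7 atrial markers was 7.44, 7.56 and 6.16 in ETX replicates 6, 7 and 10, and 8.04 in PBS replicate 3. Among the ETX hearts, replicate 10 was the lowest in both, but replicate 7 had the highest atrial mean and replicate 6 the highest Tnni1. The markers were split: Myl7 (9.03 and 8.84 in ETX replicates 6 and 7) and Myl4 (9.98 and 9.97) were higher in replicate 6. Nppa, Sln, Mybphl, Dkk3 and Bmp10 were higher in replicate 7. PBS replicate 3 had the highest atrial mean of all hearts, with Tnni1 at 4.78 against 4.73 in PBS replicates 9 and 12. That atrial mean includes Bmp10, at 7.71 in PBS replicate 3 against 2.79 and 2.94 in ETX replicates 6 and 7. Of the other atrial markers, only Sln was highest in PBS replicate 3. ETX replicate 10 lay below PBS replicate 3 in atrial mean and above it in Tnni1. A relation of Tnni1 to atrial content was not tested beyond the fits that follow. With the atrial-marker mean as a covariate the difference was 0.79 (limma adjusted p = 0.219), and without the 3 hearts high in atrial transcripts it was 0.43 (limma adjusted p = 0.571, with ETX replicate 10 as the lone ETX heart).

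The adult cardiac I subunit was lower by a small amount. Tnni3 was at 12.05, 11.90 and 11.88 in ETX replicates 6, 7 and 10, against 12.27, 12.16 and 12.09 in PBS replicates 3, 9 and 12. The groups did not overlap, although ETX replicate 6 and PBS replicate 12 were close. The means were 11.94 ± 0.10 in ETX and 12.17 ± 0.09 in PBS (SD, n = 3 each), a log2 difference of -0.23 (standard error 0.08, 95% interval -0.41 to -0.05) that left ETX 14.8% lower, without passing (limma adjusted p = 0.142). Without PBS replicates 3 and 9 the difference was -0.15 (limma adjusted p = 0.515). ETX replicate 6, the heart with the highest Tnni1, also had the highest Tnni3 of the ETX group.

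The fast skeletal I subunit gave a similar picture. Tnni2 was at 6.00, 5.92 and 5.76 in ETX replicates 6, 7 and 10, against 6.08, 6.23 and 6.04 in PBS replicates 3, 9 and 12. The groups were apart by a narrow margin, and the difference of -0.22 (95% interval -0.42 to -0.02) did not pass (limma adjusted p = 0.188). With the lung-marker mean as a covariate the difference was -0.14 (limma adjusted p = 0.566).

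The other 4 members overlapped between the groups. Cardiac troponin T, Tnnt2, was at 13.02, 12.98 and 12.89 in ETX replicates 6, 7 and 10, against 13.05, 13.05 and 12.99 in PBS replicates 3, 9 and 12, a difference of -0.07 (95% interval -0.22 to 0.09, limma adjusted p = 0.611), which was -0.12 with a further quantile normalization and -0.03 with the lung-marker mean as a covariate. These levels lay near the top of the arrays' range, which ended between 13.50 and 13.62, and 1 value for the gene cannot show its known change of splice forms after birth. Tnnc1, the C subunit of heart and slow muscle, was at 11.81, 11.83 and 11.70 in ETX replicates 6, 7 and 10, against 11.74, 11.55 and 11.52 in PBS replicates 3, 9 and 12. PBS replicate 3 lay inside the ETX range, and the difference of 0.18 (95% interval -0.0063 to 0.37) did not pass (limma adjusted p = 0.242).

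The fast skeletal forms Tnnt3 and Tnnc2 stayed near the array medians. Tnnt3 was at 5.07, 5.09 and 5.02 in ETX replicates 6, 7 and 10, against 5.05, 5.12 and 4.78 in PBS replicates 3, 9 and 12. The difference of 0.08 (95% interval -0.14 to 0.30, limma adjusted p = 0.679) turned to -0.025 without PBS replicate 12, its lowest heart. It was 0.26 with the lung-marker mean as a covariate (limma adjusted p = 0.204) and 0.28 without PBS replicates 3 and 9 (limma adjusted p = 0.219). Tnnc2 was at 4.68, 4.58 and 4.65 in ETX replicates 6, 7 and 10, against 4.62, 4.77 and 4.50 in PBS replicates 3, 9 and 12, and the PBS values enclosed the ETX values. Its difference was 0.0063 (95% interval -0.18 to 0.20, limma adjusted p = 0.974), with a sign that turned to -0.02 with arrays centred on their median and to -0.01 with a further quantile normalization. With the lung-marker mean as a covariate the Tnnc2 difference was 0.14 (limma adjusted p = 0.463), and without PBS replicates 3 and 9 it was 0.13 (limma adjusted p = 0.525).

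**Figure D2:**
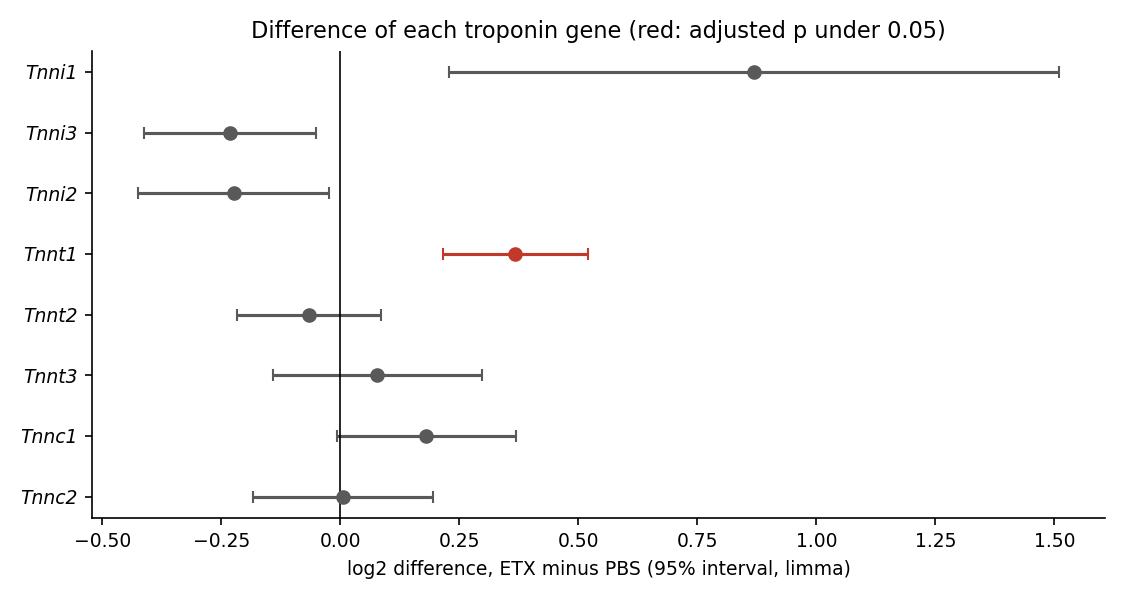
Log2 difference of each troponin gene, ETX minus PBS, with its 95% interval from limma over 6 hearts. The red point is Tnnt1, called at an adjusted p of 0.0318. The intervals of Tnni1, Tnni3 and Tnni2 also leave out 0 but their p-values did not pass the adjustment over all genes, and those of Tnnt2, Tnnt3, Tnnc1 and Tnnc2 include 0.

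Counted together, 4 of the 8 troponin genes had ETX and PBS hearts without overlap, 2 higher (Tnni1 and Tnnt1) and 2 lower (Tnni3 and Tnni2). Over all genes tested 27.7% were without overlap, 11.6% as higher and 16.1% as lower in ETX. The same 4 had an unadjusted limma p under 0.05, as did 21.9% of all genes tested. The median log2 difference was 0.04 for the 8 members and -0.0063 for all genes tested.

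The balance of isoforms within a heart was compared to set aside any shift that is equal over a whole array. It is the log2 value of 1 isoform minus that of another in the same heart, given relative to the PBS mean; only its change between groups can be read, since the probes differ. The balance of Tnni1 to Tnni3 stood at 1.76, 0.83 and 0.71 in ETX replicates 6, 7 and 10, against -0.055, -0.0049 and 0.060 in PBS replicates 3, 9 and 12. All ETX hearts lay further towards the foetal form than any PBS heart, by 1.10 ± 0.57 in ETX against a PBS spread of 0.06 (SD, n = 3 each), or 2.14-fold in the ratio. The exact two-sided permutation test gave p = 0.1, the smallest that 3 hearts against 3 allow, and 0.15 adjusted over the 3 balances. Tnni1 and Tnni3 had each separated the groups in opposite directions, so this separation and its p were bound to follow.

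The balance of Tnnt1 to Tnnt2 was at 0.37, 0.46 and 0.48 in ETX replicates 6, 7 and 10, against -0.08, -0.04 and 0.12 in PBS replicates 3, 9 and 12. It separated the groups as well, with a mean of 0.43 ± 0.06 in ETX against a PBS spread of 0.10 (SD, n = 3 each), 1.35-fold in the ratio (exact permutation p = 0.1, adjusted 0.15). Tnnt1 alone had separated the groups and Tnnt2 differed by -0.07, so this balance mostly repeats the Tnnt1 values. The ETX hearts were ordered differently in the pair: ETX replicate 6 had the highest I balance and the lowest T balance. The balance of Tnnc2 to Tnnc1 was at -0.16, -0.28 and -0.08 in ETX replicates 6, 7 and 10, against -0.15, 0.19 and -0.041 in PBS replicates 3, 9 and 12, and overlapped (exact permutation p = 0.2, adjusted 0.2).

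**Figure D3:**
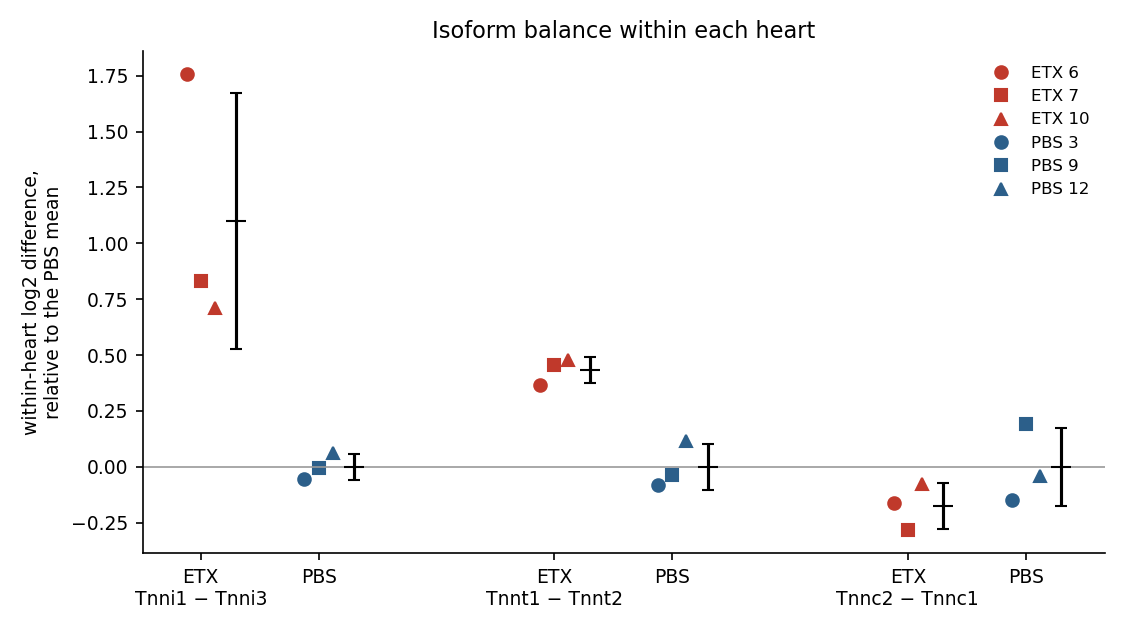
Within-heart log2 difference of 3 isoform pairs relative to the PBS mean, with ETX left of PBS, 1 symbol for each heart and the mean and SD of 3 hearts beside them. The Tnni1 and Tnnt1 balances separate the groups (at least 0.71 and 0.37 in ETX, at most 0.060 and 0.12 in PBS), and that of Tnnc2 overlaps.

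Markers of other tissues were set beside these values. The 12 cardiomyocyte markers averaged 11.17 to 11.30 in ETX and 11.23 to 11.26 in PBS, so heart muscle transcripts were present throughout, and 0 of the 12 were called by limma. The 22 skeletal muscle markers, with the troponins left out, averaged 4.03 to 4.06 in ETX and 4.02 to 4.11 in PBS, and their summed signal on the log2 scale was 8.67 to 8.73 in ETX and 8.75 to 8.96 in PBS. Of these, 5 were under the filter on dim genes. Of the other 17, 0 rose and 1 fell, Casq1, with 11 of 17 above 0 and a median of 0.05. Over all genes tested 3.56% were called and 48.4% lay above 0. Casq1 carried the lower sum: without it, a choice made after its values were seen, the summed signal was 8.49 to 8.54 in ETX and 8.42 to 8.53 in PBS, which overlapped, and the median was 0.06.

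The 7 atrial markers averaged 6.16 to 7.56 in ETX and 5.57 to 8.04 in PBS, summed to 12.03 to 12.86 in ETX and 9.86 to 12.55 in PBS, and 0 were called by limma. The 10 lung markers averaged 3.51 to 3.60 in ETX and 3.45 to 7.02 in PBS, summed to 7.13 to 7.21 in ETX and 7.05 to 11.19 in PBS, with 0 of 8 tested called. All 8 of these lung markers lay below 0, with a median difference of -1.83, so lung transcripts were higher in the PBS group, through 2 of its 3 hearts, and Sftpc was higher in each PBS heart than in any ETX heart. The 7 smooth muscle markers averaged 6.93 to 7.46 in ETX and 7.08 to 7.23 in PBS, summed to 11.03 to 11.48 in ETX and 11.35 to 11.48 in PBS, with 0 called. ETX replicate 6, the heart with the highest Tnni1, also had the highest smooth muscle mean. In PBS replicate 12, with lung transcripts near the ETX level and low atrial ones, Tnni1 was at 4.73 and Tnnt1 at 6.53. Each value lay below all ETX hearts. This Tnnt1 value was the highest of the PBS group, against 6.40 and 6.44 in PBS replicates 3 and 9. The part of these tissues in the troponin differences was not tested beyond the fits given.

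**Figure D4:**
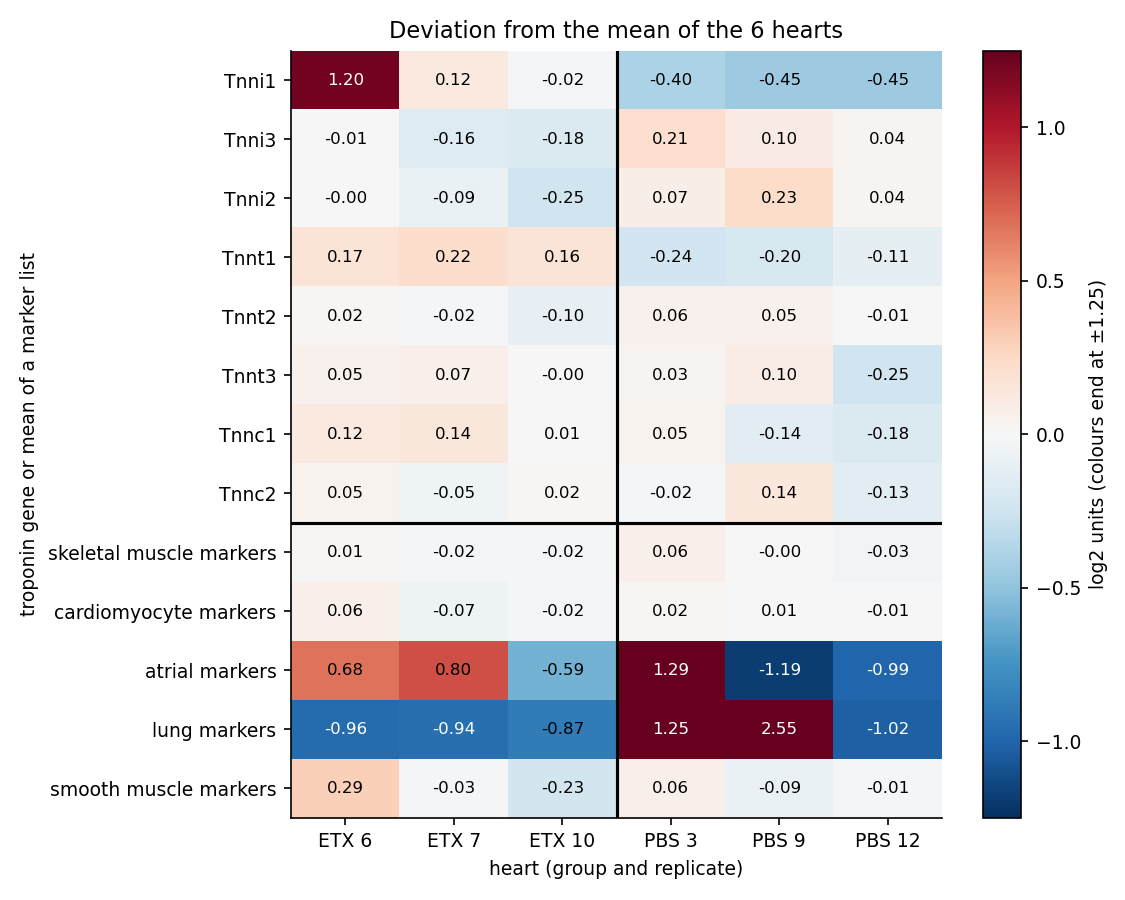
Deviation of each troponin gene, and of the mean of each marker list, from its mean over the 6 hearts, in log2 units, with hearts as columns (ETX left of PBS). Tnnt1 is positive in the 3 ETX hearts and negative in the 3 PBS hearts, Tnni1 is at 1.20 in ETX replicate 6, the atrial row is high in ETX replicates 6 and 7 and PBS replicate 3, and the lung row is high in PBS replicates 3 and 9 and in no ETX heart.

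Among 23 partners of troponin on the thin filament, Acta1 and the tropomyosin Tpm2 rose 3.47-fold and 1.92-fold (limma adjusted p = 0.00617 and 0.0071). Acta1 encodes skeletal alpha-actin, an actin of the foetal heart. With the lung-marker mean as a covariate the limma adjusted p was 0.0452 for Acta1 and 0.0483 for Tpm2. Without PBS replicates 3 and 9, which leaves a lone PBS heart, their log2 differences were 1.78 and 0.86. Tmod4, a cap of the pointed end of actin filaments, fell. Tmod4 was at 4.86, 4.46 and 4.43 in ETX replicates 6, 7 and 10, against 5.48, 5.46 and 5.68 in PBS replicates 3, 9 and 12 (limma adjusted p = 0.0113; 0.0523 without ETX replicate 7). The median of the list was 0.02, beside -0.0063 over all genes, and turned to -0.0046 with arrays centred on their median. Of 12 foetal and stress genes of the sarcomere, Acta1, Tpm2 and Fhl1 (1.38-fold, limma adjusted p = 0.0471) rose and 0 fell, with 9 of 12 above 0 and a median of 0.63. This list shares Myl7, Nppa and Myl4 with the atrial markers, and it was drawn up with the rise of Acta1 and Tpm2 known. Without these 3 genes, which differed by 1.18, 2.04 and 0.83 with groups that overlapped, 6 of 9 lay above 0 and the median was 0.15. Over all genes tested 48.4% lay above 0 and 3.56% were called.

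Of 18 genes of adult heart muscle 17 lay below 0, with a median of -0.10, and 1 fell: Hrc, a calcium-binding protein of the sarcoplasmic reticulum. Over all genes tested 3.56% were called and 51.6% lay below 0, or 59.8% with arrays centred on their median. Hrc was at 8.03, 7.89 and 7.89 in ETX replicates 6, 7 and 10, against 8.38, 8.33 and 8.41 in PBS replicates 3, 9 and 12 (limma adjusted p = 0.0225). The M-band protein Myom2 differed by -0.50 (limma adjusted p = 0.0601) and Ckm, the muscle creatine kinase and the 1 member above 0, by 0.30 (limma adjusted p = 0.0588). With 1 heart left out, Fhl1 passed in 0 of the 6 limma fits (adjusted p from 0.0668 to 0.151), Hrc passed without ETX replicate 6 or PBS replicate 9 but in no other (up to 0.093), and Myom2 passed without ETX replicate 6 (0.0463). Myom2 and Ckm also passed in limma with genes under the median left out (adjusted p = 0.0342 and 0.032) and with trend and robust eBayes (0.0295 and 0.0179), and Myom2 with arrays centred (0.0431). Fhl1 and Hrc were not called with the lung-marker mean as a covariate (limma adjusted p = 0.192 and 0.083).

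**Figure D5:**
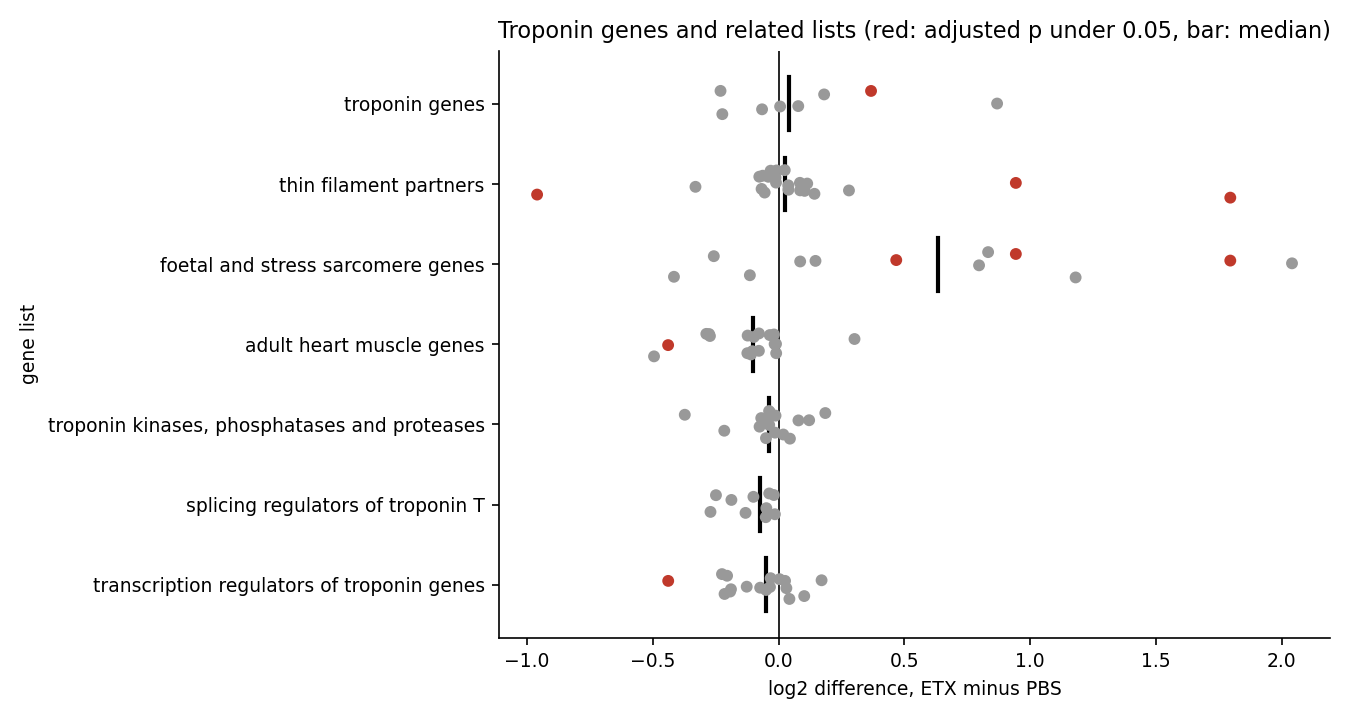
Log2 difference of every tested gene of the troponin set and of 6 related lists, ETX minus PBS, with red for genes at a limma adjusted p under 0.05 and a bar at each list's median. The medians of 0.04 for the troponin genes and 0.02 for thin filament partners lie near 0, that of the foetal and stress genes at 0.63 (0.15 without the 3 shared with the atrial markers) and that of the adult genes at -0.10.

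No enzyme listed as acting on troponin was called in the main fit, where 3.56% of all genes tested were called. Of 18 measured kinases, phosphatases and proteases 0 were called by limma (median -0.04, and 0.0042 with a further quantile normalization), and the members with the smallest p were Prkcb, a protein kinase C (-0.37, limma adjusted p = 0.0583), the phosphatase subunit Ppp1ca (0.19, limma adjusted p = 0.14) and Prkcd (-0.22, limma adjusted p = 0.201). Prkcb passed in 3 of 6 other planned settings with all hearts (0.0357 with arrays centred, 0.0424 with a further quantile normalization and 0.0459 with trend and robust eBayes), and with the lung-marker mean as a covariate its difference was -0.23 (limma adjusted p = 0.26) and that of Prkcd -0.11 (limma adjusted p = 0.633). Of the 20 genes listed, Prkaca and Pak1 were on no cluster with a single gene symbol. All 10 splicing regulators that act on troponin T or related muscle exons lay below 0, with a median of -0.08, and 0 were called by limma; with a further quantile normalization 7 of the 10 lay below 0, against 49.8% of all genes tested. Mbnl1, which promotes adult splice forms, differed by -0.27 (limma adjusted p = 0.0694), Ptbp2 by -0.25 (limma adjusted p = 0.16) and Celf2 by -0.19 (limma adjusted p = 0.188). Mbnl1 passed in limma with genes under the median left out (adjusted p = 0.0381) and with trend and robust eBayes (0.028). The Celf2 value rests on its brightest cluster, and with the mean of its clusters the difference was -0.09 (limma adjusted p = 0.536).

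Of 17 transcription regulators 1 fell, the thyroid hormone receptor Thrb, and the median was -0.05. Over all genes tested 3.56% were called, so this count is no result about the list. Thyroid hormone is known in rodents to hasten the replacement of slow by cardiac troponin I. Thrb was at 5.48, 5.34 and 5.34 in ETX replicates 6, 7 and 10, against 5.84, 5.77 and 5.87 in PBS replicates 3, 9 and 12. The groups were well apart (log2 difference -0.44, limma adjusted p = 0.0251), but with 1 heart left out Thrb passed in limma only without ETX replicate 6 or PBS replicate 9, with an adjusted p of 0.0636 to 0.098 in the other 4 fits, and 0.083 with the lung-marker mean as a covariate. Rxra, a partner of nuclear receptors, differed by -0.20 (limma adjusted p = 0.104) and Mef2a, a muscle transcription factor, by -0.21 (limma adjusted p = 0.113).

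The genes whose pattern over the 6 hearts was most like that of Tnnt1 were Ybx3, a cold-shock domain protein that binds nucleic acids, Phf24, the inositol phosphatase Inpp5a, and the ribosomal protein genes Rps28 and Mrps22. Likeness was the root mean square difference of log2 values centred on each gene's mean. It was 0.034 for Ybx3, 0.039 for Phf24, 0.043 for Inpp5a, 0.044 for Rps28 and 0.045 for Mrps22. Their differences between ETX and PBS lay between 0.31 for Ybx3 and 0.36 for Phf24, near the 0.37 of Tnnt1. Since Tnnt1 separated the groups, genes with a like difference are bound to be near it.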

How the data were processed

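Total RNA of 6 hearts was measured on Affymetrix whole-transcript arrays. The deposited log2 values were made by the authors with Affymetrix Expression Console and RMA, per the submitters' processing notes; no version, filter or array annotation is named there. RMA equalises the arrays' distributions and shrinks the differences of dim genes. Of 35556 clusters, 21789 had exactly 1 symbol in the platform annotation, and for the 999 genes with several such clusters the brightest was used. Genes with a mean in the lowest 25% were left out, which kept 14953.

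Groups follow the labels. The test of ETX against PBS was the two-sided moderated test of limma 3.58.1 in R 4.3.3 (lmFit, then eBayes), across all genes at a Benjamini-Hochberg adjusted p threshold of 0.05. The functions were tested on simulated data. The isoform balances were compared by exact permutation tests in scipy 1.17.1. Figures were drawn with matplotlib 3.10.9.

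The 8 members, the 6 pathway lists and the 5 marker lists were chosen with earlier results of these data known, so no pattern shown before is independent support. All members are named, and from each pathway list the called genes and the 3 with the smallest p; the 5 genes most like each called member leave out predicted, receptor and small RNA genes. Casq1, Sftpc, Myl7, Myl4, Sln, Mybphl, Dkk3, Bmp10, Nppa, Myh6 and Myh7 were named after their values were seen. Alternatives changed the filter, eBayes options, normalization, cluster choice and the hearts; the fits with marker scores or without hearts rich in lung or atrial transcripts were added after seeing the data. No protein sequences were used here.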

Additional observations from a re-analysis of the deposited data

How the results depend on the processing

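Tnnt1 was the 1 troponin gene called under 6 of the 7 other planned settings with all hearts, and 0 were called with all 35556 transcript clusters as features (Tnnt1 adjusted p = 0.0848 in limma). With 1 heart left out, 0 to 1 were called: Tnni1 without ETX replicate 6, and 0 by limma in the other 5 fits. The count was 0 in limma in each of the 5 fits added after seeing the data, where the adjusted p of Tnnt1 was 0.059 with the skeletal muscle-marker score, 0.0637 with the atrial score, 0.156 with the lung score, 0.209 without PBS replicates 3 and 9, and 0.608 without the 3 hearts high in atrial transcripts; in the last 2 a lone heart stands for its group and is taken to vary as the other hearts do.

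Over all genes 533 were called, against 909 with genes under the median left out, 957 with trend and robust eBayes, 294 with all clusters, 90 to 242 without 1 heart, 71 with the lung score, 135 with the atrial score, 246 with the skeletal score, 19 without the lung-rich hearts and 2 without the 3 hearts high in atrial transcripts. Called genes were lower in ETX in 68.1% of cases, in 78.6% with arrays centred, 58.3% with a further quantile normalization and 36.1% with all clusters. Tnnc2 (0.0063) turned to -0.023 with arrays centred, -0.010 with quantile normalization and ran from -0.057 to 0.075 without 1 heart; Tnnt3 ran from -0.025 to 0.15. Without 1 heart, Tnni1 ran from 0.48 to 1.10, Tnni3 from -0.29 to -0.18 and Tnni2 from -0.28 to -0.16. In the same fits the Tnni1 balance ran from 0.77 to 1.29, that of Tnnt1 from 0.39 to 0.49 and that of Tnnc2 from -0.25 to -0.080. With all hearts and a further quantile normalization these balances were 1.08, 0.53 and -0.22. The cause of these changes was not tested. The labels name no pairs of hearts, so no paired analysis was made. Without detection calls, the signal of Tnni1, Tnnt3 and Tnnc2 over background is unknown.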

Other observations

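Casq1, a calcium-binding protein of the sarcoplasmic reticulum best known from fast skeletal muscle, was the called member of the skeletal muscle markers. It was at 5.75, 5.74 and 5.42 in ETX replicates 6, 7 and 10, against a range of 6.15 to 7.01 over the PBS hearts, with replicate 9 the lowest. The groups did not overlap, and the log2 difference was -1.08 (95% interval -1.59 to -0.57, limma adjusted p = 0.0419), opposite in sign to that of Tnnt1. The alternative fits were not examined for Casq1, so how far its call depends on single hearts is unknown. Casq1 and the cardiac myosin heavy chains, a further isoform pair of the heart, were chosen after their values were seen. Myh7, the foetal form in mice, differed by -0.11 (95% interval -0.26 to 0.04, limma adjusted p = 0.351) and Myh6, the adult form, by -0.10 (95% interval -0.26 to 0.05, limma adjusted p = 0.402).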
